A study of Mus musculus with 2 samples.

Results

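The Cd74 cluster is cluster 15 of the Seurat clusters that the authors deposited at resolution 1.5, and its cells were taken by that number alone. It held 150 of 13683 cells of mouse thymus. The cells came from 1 library of Cdc42f/f thymus (WT), pooled from 5 mice, and from 1 library of Cdc42f/f CD4Cre thymus (KO), pooled from 5 littermates, all 6 weeks old. Both groups carry the Cdc42 allele with LoxP sites around exon 2, and the KO mice alone carry Cre, driven by the CD4 promoter. That promoter becomes active at the double-positive (DP) stage of T cell development, so the deletion was aimed at T cells and not at the B cells and dendritic cells described here. Each cell was assigned to its library by WT or KO in its name. With 1 library per condition no test between WT and KO was possible, cells were not counted as replicates, and all intervals given are exact 95% intervals that cover counting error only. WT and KO values therefore describe 2 pooled libraries, and genotype, pool and library cannot be told apart.

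Within the cluster, cells with at least 1 UMI (a counted transcript molecule) of Cd79a or Igkc are called positive, and all others remaining. Cd79a encodes a signalling chain of the B cell receptor, and Igkc the constant part of the kappa light chain of antibodies. The thymus holds a small population of B cells, some of which develop there and some of which enter from the blood, and they present antigen to developing T cells. Dendritic cells (DCs) of the thymus do the same: conventional DCs of type 1 (cDC1) and type 2 (cDC2), the activated state marked by Ccr7 and Fscn1, and plasmacytoid DCs (pDCs), which are known for making type I interferon. B cells and DCs share MHC class II, the molecules that display peptides to CD4+ T cells. Their chains are H2-Aa, H2-Ab1 and H2-Eb1, Cd74 is the invariant chain that escorts them to the endosome, H2-DMa and H2-DMb1 load the peptide, H2-Oa and H2-Ob restrain that loading, and Ciita is the coactivator that switches the group on.

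Promoters of MHC class II genes are shown because such promoters are known to share the sequence through which these genes are switched on together: an X box bound by the RFX complex and, closer to the gene start, a Y box bound by NF-Y, on which Ciita assembles. The windows come from RefSeq on GRCm38.p6, which held an entry for 11 of the 15 genes of the MHC class II list, and none for Cd74, H2-Ab1, Ciita and Cd83. Of the 11, 4 held the longer form of the Y box letters given below and 4 the shorter form alone, while Ctss, Lgmn and Ifi30 held neither. The lines show 6 of those 8 genes. H2-DMb2 is not shown, nor is H2-DMa, whose match lay at -199 in 1 of its windows with no GCAAC before it. Each line is read on the gene's own strand, and capitals mark GCAAC, letters of the X box, and the Y box letters CTGATTGG, or GATTGG where the shorter form alone was present. H2-Aa lies on the minus strand at chr17:34287855-34287914. The other lines lie on the plus strand, H2-Eb1 at chr17:34305765-34305824, H2-Eb2 at chr17:34325532-34325591, H2-Oa at chr17:34092293-34092352, H2-Ob at chr17:34238807-34238864 and H2-DMb1 at chr17:34153089-34153146.
H2-Aa: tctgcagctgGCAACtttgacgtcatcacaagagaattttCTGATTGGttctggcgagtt
H2-Eb1: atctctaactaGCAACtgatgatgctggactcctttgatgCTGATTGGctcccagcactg
H2-Eb2: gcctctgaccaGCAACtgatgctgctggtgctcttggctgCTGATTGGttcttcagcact
H2-Oa: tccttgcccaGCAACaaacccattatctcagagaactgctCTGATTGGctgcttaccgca
H2-Ob: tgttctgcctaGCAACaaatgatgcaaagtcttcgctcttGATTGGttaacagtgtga
H2-DMb1: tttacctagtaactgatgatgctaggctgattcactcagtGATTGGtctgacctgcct
In the first 5 genes GCAAC stood 24 or 25 bases before the Y box letters, and in H2-DMb1 these letters were not in the 40 bases shown before the box. CTGATTGG begins 51 bases before the gene start in H2-Aa, at position -51, and at -62 in H2-Eb1, -103 in H2-Eb2 and -46 in H2-Oa. Of all 32851 promoter windows of 300 bases, 1.99% held CTGATTGG on the gene's strand and 4.10% on either strand, and 8.71% and 16.1% held GATTGG, of which CTGATTGG is a longer form. GCAAC followed by GATTGG within 40 bases stood in 0.298% of the windows on the gene's strand and in 0.566% on either strand. A match of these letters describes the sequence and is not evidence of binding in these cells.

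Cdc42, the small GTPase targeted in the KO mice, was checked first in both subsets of the cluster and in both libraries. In positive cells it had 35 UMIs in 12 of 15 WT cells, or 452 CPM (UMIs per 1000000 UMIs of those cells), and 143 UMIs in 46 of 50 KO cells, or 494 CPM. In remaining cells it had 103 UMIs in 33 of 48 WT cells (722 CPM) and 124 UMIs in 28 of 37 KO cells (608 CPM). The log2 ratio of KO over WT was 0.11 (interval -0.41 to 0.70) in positive cells and -0.25 (-0.64 to 0.14) in remaining cells. By these summed counts the level of Cdc42 was within counting error between the libraries in both subsets. In positive cells the alternatives ran from -0.23 to 0.36, inside the interval. In remaining cells the ratio left it, at -0.71 as a mean over cells of counts per 10000 UMIs. It was also outside at -0.66, without the 5% of cells with most UMIs in each library. The library kit counts the 3′ end of transcripts, which lies outside exon 2, so these counts cannot tell an intact from a deleted allele.

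The libraries held 29706197 UMIs in 6115 WT cells and 37920214 UMIs in 7568 KO cells, with 17 cell barcodes in common, 1 of them in the cluster. Depth differed between the libraries in this cluster and much less elsewhere: the median was 1202 UMIs per WT cell and 4284 per KO cell of the cluster, against 3198 and 3395 in all other cells. Positive cells had a median of 2907 UMIs in WT and 4617.5 in KO, and remaining cells 973.5 in WT and 2504 in KO. Mitochondrial transcripts made up 3.00% of the UMIs of positive cells in WT and 4.66% in KO, and 2.50% and 3.68% of those of remaining cells. Depth and mitochondrial share therefore move with the library in the comparisons of WT with KO below. Leaving out the cells over 10% mitochondrial UMIs, 1 in WT and 3 in KO, kept 31 of 32 ratios of named genes in positive cells and 31 of 31 in remaining cells within their counting intervals, the exception being Igkc. The part of depth was examined for the share of positive cells, by thinning, and not for the ratios of genes.

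The label of the cluster was checked against the 5 markers given for it. Cd74 had 11961 CPM in WT and 9680 CPM in KO cells of the cluster, in 76.2% and 80.5% of them, against 37.4 and 7.32 CPM in all other cells. H2-Aa had 5101 and 2814 CPM against 13.8 and 3.07 CPM elsewhere, and H2-Ab1 4142 and 2686 CPM against 21.6 and 7.40 CPM. Cd79a was found in 14.3% of WT and 52.9% of KO cells of the cluster, and Igkc in 22.2% and 49.4%. The MHC class II part of the label thus held for most cells and the B cell part for a fraction that differed between the libraries. Of the 15 genes of the MHC class II list all had UMIs in the cluster in both libraries, with 28951 CPM in WT and 20391 CPM in KO as a sum. The neighbouring Apoe cluster, number 16 with 30 WT and 49 KO cells, reached 17217 and 6607 CPM, and all other cells 177 and 91.9 CPM.

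The cluster made up 1.03% of WT cells (63 of 6115, interval 0.793 to 1.32) and 1.15% of KO cells (87 of 7568, 0.922 to 1.42), so its share was alike within counting error. The share of positive cells within it was not. It was 23.8% in WT (15 of 63, interval 14.0 to 36.2) and 57.5% in KO (50 of 87, 46.4 to 68.0), and the intervals did not overlap. When every cell was thinned to 500 UMIs the shares were 19.9% and 53.2%, with 1 WT cell too shallow to be thinned. In the 5 clusters with most Rag1, which hold DP thymocytes and should lack both genes, 0.358% of WT and 1.34% of KO cells were positive at median depths of 2823 and 3097 UMIs. Few cells lay near the limit of 1 UMI: 2 WT and 2 KO cells had exactly 1 UMI of Cd79a and Igkc together, 1 WT cell had 2, and 12 WT and 48 KO cells had 3 or more.

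**Figure D1:**
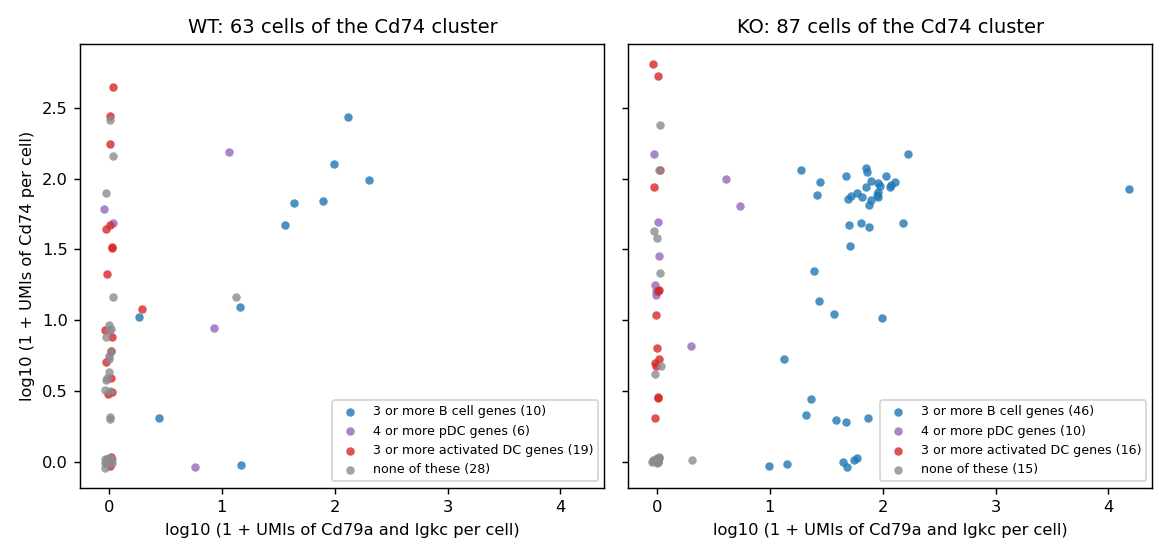
Each point is 1 cell of the Cd74 cluster, WT on the left (63 cells) and KO on the right (87 cells). Both axes are log10 of 1 plus UMIs per cell, Cd79a and Igkc summed on the horizontal axis and Cd74 on the vertical axis, with a small random shift so that cells at 0 do not hide each other. Colours give the gene list a cell carries, as described in the text. Cells with B cell genes (10 in WT, 46 in KO) lie to the right, and those with activated DC genes (19 and 16) stand mostly at 0 of Cd79a and Igkc over the whole range of Cd74.

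To see what the positive and remaining cells were, each cell was read against lists of markers, keeping those at least 10-fold higher in the cluster than in other cells. A cell with at least 4 of 7 pDC genes was called a cell with pDC genes. Of the others, a cell with at least 3 of 20 B cell genes was called a cell with B cell genes, and one with at least 3 of 12 activated DC genes a cell with activated DC genes. These limits were chosen after the values were seen. Of the 15 positive WT cells, 10 had B cell genes, 3 pDC genes, 1 activated DC genes and 1 none of these. Of the 50 positive KO cells, 46 had B cell genes, 3 pDC genes and 1 none of these. Of the 48 remaining WT cells, 18 had activated DC genes, 3 pDC genes and 27 none of these, and of the 37 remaining KO cells 16 had activated DC genes, 7 pDC genes and 14 none of these. As a share of the cluster, cells with B cell genes made up 15.9% in WT (interval 7.88 to 27.3) and 52.9% in KO (41.9 to 63.7). Cells with pDC genes made up 9.52% (3.58 to 19.6) and 11.5% (5.65 to 20.1), and cells with activated DC genes 30.2% (19.2 to 43.0) and 18.4% (10.9 to 28.1).

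Positive cells were then compared with remaining cells within each library. A gene was counted as higher or lower where the log2 ratio of its CPM was at least 1 in size and both sides together held at least 20 UMIs. Of the 1587 genes with enough UMIs in WT, 9.89% were higher and 12.7% lower in positive cells, and of 3642 in KO, 9.56% were higher and 14.7% lower. Cd79a and Igkc chose the cells, and genes of the same cells are not independent of that choice, so these ratios are a description. With the DESeq2 size factors 503 genes were higher and 351 lower in KO instead of 348 and 534, and with TMM factors 443 and 408, and in WT 110 and 260 instead of 157 and 201, so the balance of higher and lower genes depended on the scaling. Without immunoglobulin genes in the total the KO counts were 431 and 413, and as a mean over cells 952 and 504.

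Genes of the B cell receptor and of B cell identity stood far apart between the subsets. Of the 22 genes of the B cell list, 7 of the 8 with enough UMIs were higher in positive cells in WT, and 20 of 20 in KO. Cd79a is among them and was fixed by the rule, and without it the counts were 6 of 7 and 19 of 19. In remaining cells 15 of the 22 genes were at 0 UMIs in WT and 11 in KO. Such genes could reach 20 UMIs only through positive cells, so these counts follow in part from the minimum. Cd79b, the partner chain of Cd79a, had 608 CPM in positive and 28.1 in remaining WT cells, and 1974 and 24.5 CPM in KO, log2 ratios of 4.28 (interval 2.99 to 6.37) and 6.20 (5.10 to 7.96). Pax5 and Ebf1, transcription factors that set B cell identity, and Ms4a1, which encodes CD20, were at 0 UMIs in all remaining cells of both libraries. Ms4a1 had 67 UMIs in 6 positive WT cells and 304 UMIs in 32 positive KO cells, at least 41.2-fold and 71.4-fold higher than in remaining cells, with 3 counts as the floor. Ighm, the mu heavy chain of the antibody, was not confined to positive cells: 8 of 48 remaining WT cells and 18 of 37 remaining KO cells held it, at 302 and 490 CPM against 2883 and 3730 CPM in positive cells.

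The MHC class II genes, by which the whole cluster is known, differed little between the subsets. Cd74 had 11298 CPM in positive and 12321 in remaining WT cells, and 9163 and 10412 CPM in KO, log2 ratios of -0.12 (interval -0.24 to -0.01) and -0.18 (-0.27 to -0.10). H2-Aa had 4136 and 5624 CPM in WT and 2250 and 3613 CPM in KO, ratios of -0.44 and -0.68. H2-Eb1 had 3787 and 4930 CPM in WT and 1576 and 3231 CPM in KO, ratios of -0.38 and -1.03. H2-Eb1 in KO alone passed the size rule, and Cd74 changed sign with the scaling: with TMM factors it was at -0.30 in WT and -0.02 in KO, and as a mean over cells at 0.29 and 0.42. It also moved with the choice of cells, to 0.35 in WT when positive cells were chosen by Cd79a, and in KO to -1.10 when chosen by at least 2 other B cell genes and to 0.43 without the 5% of cells with most UMIs. The regulators of peptide loading went the other way. H2-Ob, a chain of the H2-O molecule that B cells are known for, had 22 UMIs in 6 positive WT cells and 0 in remaining WT cells, at least 13.5-fold higher, and 280 against 29.4 CPM in KO, a log2 ratio of 3.14 (2.07 to 4.74). H2-Oa had ratios of 2.03 (0.99 to 3.24) and 1.19 (0.41 to 2.09), and H2-DMb2 1.72 (0.93 to 2.58) and 1.27 (0.58 to 2.07). The related H2-DMb1 had -0.70 (-2.24 to 0.51) and -1.56 (-2.51 to -0.72), and reads of these near-identical genes may be split uncertainly. Ciita, the coactivator, had 310 against 140 CPM in WT and 96.8 against 49.0 CPM in KO, ratios of 1.14 and 0.94. Over the list, 4 genes were higher and 0 lower of 13 in WT, and 3 were higher and 3 lower of 15 in KO, with list medians of -0.12 and -0.18 against -0.01 and -0.17 over all genes.

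Remaining cells held the genes of activated DCs. Of the 20 genes of that list, 14 of 15 with enough UMIs were lower in positive cells in WT and 11 of 14 in KO. In positive cells 7 of the 20 were at 0 UMIs in WT and 8 in KO. Such genes could reach the minimum only through remaining cells, so these counts too follow in part from it. Cst3, the protease inhibitor cystatin C that DCs make in quantity, had 1237 UMIs in 39 of 48 remaining WT cells and 1969 UMIs in 31 of 37 remaining KO cells, against 52 and 126 UMIs in positive cells, with log2 ratios of -3.68 (interval -4.12 to -3.29) and -4.46 (-4.74 to -4.21). Ccl5, a chemokine that attracts T cells, had 467 UMIs in 18 remaining WT cells and 382 in 13 remaining KO cells, and was found in 1 positive cell of each library, with 3 and 19 UMIs. Fscn1, the actin-bundling protein fascin of mature DCs, had 764 CPM in remaining and 116 in positive WT cells. In KO it had 387 CPM in remaining cells and 0 UMIs in positive cells, at least 37.3-fold lower. Cxcl16, a chemokine ligand of CXCR6, had 62 UMIs in 20 remaining WT cells and 44 in 16 remaining KO cells, against 0 and 1 UMI in positive cells. Among the actin partners of Cdc42, 1 of 21 genes was higher and 1 lower in WT and 0 of 22 higher and 1 lower in KO; Actg1, gamma actin, was the lower gene in both, with ratios of -1.37 and -1.03, and Rac2 the higher one in WT with 1.18.

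**Figure D2:**
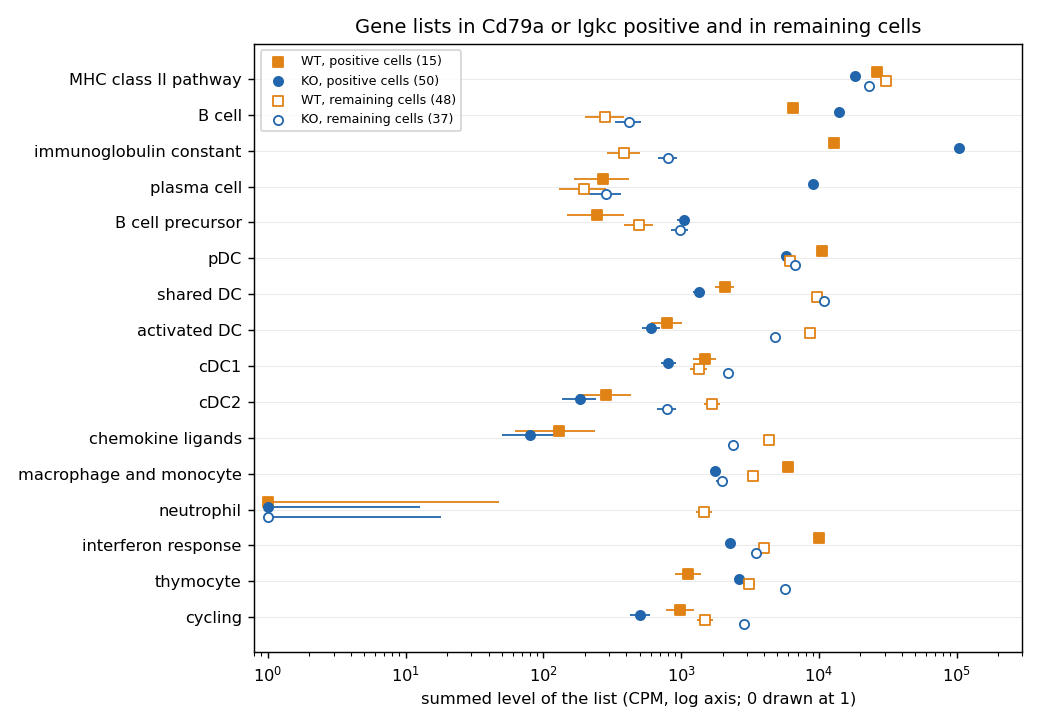
Summed level of each gene list in CPM, on a log axis, in positive cells (filled) and remaining cells (open) of WT (squares, 15 and 48 cells) and KO (circles, 50 and 37 cells). Lines are exact 95% intervals for counting error, and a level of 0 is drawn at 1. The MHC class II lists lie close together at 18385 to 30428 CPM, while the B cell list is at 6463 and 14092 CPM in positive and 281 and 417 CPM in remaining cells.

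The cells with pDC genes sat on both sides of the rule. Siglech, a surface receptor of pDCs, was read in all 6 WT cells with 9 to 35 UMIs (median 21) and in all 10 KO cells with 5 to 48 UMIs (median 19.5). Tcf4, the transcription factor that sets pDC identity, was read in 6 of 6 and 9 of 10 of them, with medians of 13.5 and 21 UMIs. Siglech is among the 7 genes that chose these cells, so its presence follows in part from the choice, and Tcf4 is not among them. Cd79a was at 0 in all 16 cells, and Igkc was read in 3 of 6 WT cells, with 11 UMIs at most, and in 3 of 10 KO cells, with 5 UMIs at most. Those 6 cells were positive through Igkc alone. Ighm was read in all 16, with medians of 11 UMIs in WT and 9.5 in KO. The ratio of Siglech between positive and remaining cells, 1.5 in WT and -1.30 in KO, followed from these few cells: it was -6.17 and -8.91 when positive cells were chosen by Cd79a alone.

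Among the 46 KO cells with B cell genes, 1 cell stood apart. It held 41937 UMIs, of which 15110 were Igkc, 7814 Igha, the heavy chain of IgA, and 2447 Jchain, the joining chain of secreted antibody. That cell held 88.2% of the Igkc UMIs of the positive KO cells and 100% of the Jchain UMIs, and 0 UMIs of Ighm. It also held 45 UMIs of Xbp1, the transcription factor of antibody secretion, or 64.3% of those in positive KO cells, and 419 UMIs of Ly6c2, or 93.5%. The other 45 KO cells held 2 UMIs of Igha in all. Igkc had a log2 ratio of KO over WT in positive cells of 3.15 with this cell and of 0.30 without it, so the difference in Igkc rested on that cell.

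The light and heavy chains differed from cell to cell. Igkc had more UMIs than the lambda constant genes Iglc1, Iglc2 and Iglc3 together in 7 WT and 35 KO cells with B cell genes, and fewer in 3 and 11. The UMIs of the 3 lambda genes were summed for this. Igkc was at 0 in 1 WT and 7 KO cells, all of which held lambda UMIs, 14 in the WT cell and 5 to 100 (median 78) in the KO cells. Ighm was the leading heavy chain in 45 of 46 KO cells, the remaining cell being the one with Igha. In WT it led in 7 of 10 cells, Ighg2b, the heavy chain of IgG2b, led in 1, and 2 cells held no heavy chain UMIs.

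Without the Jchain cell, the 45 KO cells with B cell genes spread over a wide range of Cd74, from 0 to 142 UMIs with a median of 69. With a limit of 20 UMIs, chosen after the values were seen, 16 cells lay at or under it and 29 over it, and 4 cells lay between 10 and 40 UMIs. The 29 cells over the limit held the other chains: H2-Aa was read in 29 of 29 with 585 UMIs and H2-Eb1 in 28 of 29 with 426 UMIs. The 16 cells at or under it held 2 UMIs of H2-Aa and 0 of H2-Eb1, and 0 of Fcer2a, the IgE receptor CD23 of mature B cells, against 57 UMIs in 16 of the 29. Ms4a1 had 12 UMIs in 3 of 16 and 290 UMIs in 28 of 29 cells, and Ighd, the delta heavy chain of mature naive B cells, 3 and 86 UMIs. The cells low in MHC class II were thus also low in these genes of mature B cells.

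Vpreb3, a protein of the endoplasmic reticulum found in developing B cells, ran in the opposite direction. It was read in all 16 KO cells at or under the limit with 285 UMIs, or 4455 CPM, and in 22 of 29 over it with 148 UMIs, or 974 CPM, a log2 ratio of 2.19 (interval 1.90 to 2.49). Other genes higher in the cells low in Cd74 were Dnajc7, Lmo4, Pafah1b3, Chchd10 and Zeb2, with ratios of 2.96, 3.44, 2.22, 2.06 and 2.20. Across the 45 cells, in counts per 10000 UMIs, Spearman's rank correlation with Cd74 was 0.78 for H2-Aa, 0.67 for Ms4a1, 0.50 for Ighd, -0.61 for Vpreb3, -0.52 for Ebf1 and 0.03 for Cdc42, and 0.20 for the total UMIs of the cell. These cells share 1 library, and the values describe it without a test. The cut and the genes come from the same cells.

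**Figure D3:**
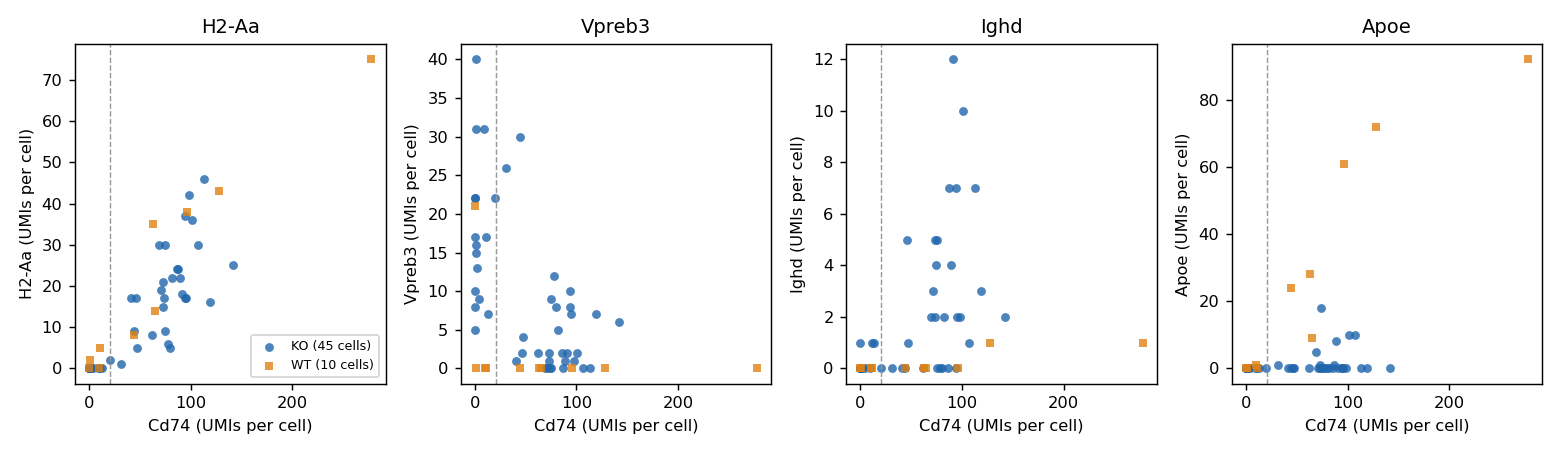
Each point is 1 cell with B cell genes, without the cell that held Jchain (45 KO cells, circles; 10 WT cells, squares), with UMIs of Cd74 on the horizontal axis and of H2-Aa, Vpreb3, Ighd or Apoe on the vertical axis. The dashed line marks the limit of 20 UMIs of Cd74. Cells left of it lie at 0 to 5 UMIs of H2-Aa, the 16 KO cells left of it all hold Vpreb3, and the WT cells right of it all hold Apoe.

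The 10 WT cells with B cell genes were fewer and differed in several genes. Their Cd74 counts were 0, 1, 10, 11, 44, 63, 65, 96, 128 and 278 UMIs. The limit of 20 UMIs is a raw count, so a shallow cell can fall under it whatever its share of Cd74. Cells at or under it had a median of 1150.5 UMIs in all in WT and 3849.5 in KO, and cells over it 4894 and 4986. The WT cells with 10 and 11 UMIs of Cd74 held 690 and 996 UMIs in all. Vpreb3 was read in 1 of 10 WT cells, with 21 UMIs, and in 38 of 45 KO cells, with 433 UMIs. The WT cell with Vpreb3 was the one with 0 UMIs of Cd74, as in the KO cells low in Cd74. Among cells over 20 UMIs of Cd74, 6 in WT and 29 in KO, Vpreb3 had 0 and 148 UMIs, Ighd 2 and 86 UMIs, Fcer2a 1 and 57 UMIs and Ebf1 17 and 261 UMIs. For Ebf1 the log2 ratio of KO over WT in these cells was 2.13 (interval 1.47 to 2.97).

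In the same WT cells other genes were high. Apoe, a lipid carrier, was read in 6 of 6 WT cells over the limit with 286 UMIs and in 8 of 29 KO cells with 54 UMIs. Its log2 ratio of KO over WT was -4.16 (interval -4.62 to -3.75). Ly6a, a surface protein induced by interferon, had 104 UMIs in 6 of 6 and 26 UMIs in 8 of 29 cells, a ratio of -3.75 (-4.45 to -3.14). Ighg2b had 56 UMIs in 5 of 6 and 4 UMIs in 3 of 29 cells, -5.42 (-7.50 to -4.14), and Ifi27l2a 237 UMIs in 6 of 6 and 157 UMIs in 22 of 29 cells, -2.36 (-2.66 to -2.06). Every WT cell over the limit thus held Apoe and Ly6a, while 8 of 29 KO cells held each of them. Of the 44630 UMIs of these WT cells, 22557 came from 1 cell, which held 92 of the 286 UMIs of Apoe. Of the 13 genes of the macrophage and monocyte list, 3 had UMIs in positive WT cells, at 5946 CPM as a sum, and 3 in positive KO cells, at 1773 CPM, most of it Ly6c2 of the cell with Jchain. The 3 genes were Apoe, Cd68 and Ly6c2. The defining macrophage genes C1qa, C1qb, C1qc and Lyz2 were at 0 in all 15 positive WT and all 50 positive KO cells. Apoe was read in 11.03% of WT and 9.87% of KO cells of the DP clusters, at 44.9 and 38.3 CPM, against 3710 CPM in positive WT cells.

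A few cells with B cell genes lay in other clusters. With at least 5 UMIs of Cd79a there were 3 such cells in WT and 5 in KO. All held Vpreb3, 31 to 43 UMIs in WT and 37 to 69 in KO, with 3 UMIs of Cd74 at most and 0 of Ms4a1. H2-Aa was at 2 UMIs at most in the KO cells, and 1 of the WT cells held 11 UMIs of it. They were large, with 9975 to 11819 UMIs in WT and 11536 to 36258 in KO, and the cycling gene Mki67 was read in 2 of 3 and 5 of 5 of them. Cells low in Cd74 that held Vpreb3 were thus present in both libraries, in and outside the cluster.

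For positive cells, KO was set beside WT over all genes. Of 2663 genes with at least 20 UMIs, 14.2% (379) were higher and 10.2% (271) lower in KO by the size rule, and the median log2 ratio was -0.04. With TMM factors 504 were higher and 158 lower, with DESeq2 size factors 506 and 158, and as a mean over cells 629 and 283, and the factors moved the median of all genes by 0.24 and 0.25. Without ribosomal protein and mitochondrial genes in the total, 325 were higher and 335 lower, so the balance went either way with the scaling. Of the 20 genes of the B cell list with enough UMIs, 9 were higher and 0 lower, with a list median of 0.83. Cd79b had 608 CPM in WT and 1974 in KO, a log2 ratio of 1.69 (interval 1.27 to 2.16). Ebf1 had 362 and 1846 CPM, 2.33 (1.802 to 2.95), and Vpreb3 271 and 1497 CPM, 2.43 (1.83 to 3.17). Ighd had 2 UMIs in 2 WT cells and 92 UMIs in 25 KO cells, 3.31 (1.73 to 6.69). Cd79a and Ms4a1, which mark B cells at large, differed less, with 0.67 (0.42 to 0.93) and 0.27 (-0.11 to 0.68), and so did Ighm with 0.37 (0.16 to 0.59). The share of positive cells with B cell genes, 10 of 15 in WT and 46 of 50 in KO, moved with these ratios. When positive cells were chosen by Cd79a, the ratios of Cd79a, Cd79b, Ebf1 and Vpreb3 were 0.16, 1.26, 1.82 and 1.92.

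MHC class II genes in positive cells were at lower or like levels in KO. Of 13 genes 1 was higher, Ifi30, a thiol reductase of the antigen-loading compartment, with 1.05 (interval 0.67 to 1.48), and 3 were lower, Cd83, Ciita and H2-Eb1. Ciita had 24 UMIs in 6 of 15 WT cells and 28 UMIs in 13 of 50 KO cells, 310 and 96.8 CPM, a ratio of -1.68 (-2.52 to -0.83). H2-Eb1 had -1.27 (-1.48 to -1.05), H2-Aa -0.88 (-1.07 to -0.68), H2-Ab1 -0.81 (-1.02 to -0.60) and Cd74 -0.30 (-0.41 to -0.19). Of the cells with B cell genes, 4 of 10 in WT and 16 of 45 in KO, without the Jchain cell, lay at or under 20 UMIs of Cd74. By this raw count the share was alike in the libraries. The WT cells with 10 and 11 UMIs of Cd74 fell under it with 690 and 996 UMIs in all. Whether the share of cells low in Cd74 for their depth was alike was not tested. They held 5079 of 49709 UMIs of the cells with B cell genes in WT and 63971 of 215870 in KO. Ratios were also taken among cells with B cell genes over 20 UMIs of Cd74, without the Jchain cell. They were 0.03 for Cd74, -0.31 for H2-Aa, -0.45 for H2-Ab1, -0.85 for H2-Eb1 and -1.27 for Ciita. The cut was made on Cd74 itself, so its ratio and those of genes that rise with it follow in part from the choice. With the Jchain cell alone left out of the positive cells, the 5 ratios were -0.12, -0.66, -0.59, -1.04 and -1.46.

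Genes of the interferon response were lower in KO positive cells, 8 of 9 with enough UMIs, with a list median of -1.92. Isg15, a ubiquitin-like protein, had 19 and 5 UMIs, a ratio of -3.73 (interval -5.61 to -2.36), and Irf7, a transcription factor of that response, 19 and 9 UMIs, -2.94 (-4.31 to -1.77). Bst2, a gene of pDCs and of the interferon response, had 172 and 171 UMIs, -1.91 (-2.23 to -1.60), and Ly6a 157 and 78 UMIs, -2.91 (-3.32 to -2.51). The sum of the list was 10083 CPM in WT and 2257 CPM in KO. pDC genes moved with it, since 3 of 15 positive cells carried them in WT and 3 of 50 in KO. Without the cells with pDC genes the ratios of Isg15, Bst2 and Ly6a were -3.73, -2.05 and -3.19. When positive cells were chosen by at least 2 other B cell genes, the 3 ratios were -2.68, -1.13 and -2.54. The part of cells with pDC genes in these ratios was not tested. A lower sum of the interferon list in KO was not confined to positive cells. It was 4018 CPM in WT and 3490 in KO in remaining cells, where 3 of 9 genes were lower and 0 higher. In the Apoe cluster it was 4494 and 1557 CPM, and in all cells outside the Cd74 cluster 947 and 695 CPM.

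The 10 genes furthest down in KO positive cells, among those with at least 50 UMIs, were Ighg2b, Apoe, Ms4a4c, Cox6a2, Ly6a, Fcer1g, Plac8, Trim30a, Ranbp1 and Grb2, with ratios from -5.63 for Ighg2b to -2.004 for Grb2. The 10 furthest up were Jchain, Igha, Igkv8-27, Satb1, Rag1, Iglv1, 4930597A21Rik, Trbc2, Slpi and Ralgps2, down to 3.47 for Ralgps2. Jchain, with 2447 UMIs in KO and 0 in WT, was at least 218-fold higher, and it and nearly all Igha came from the single cell described above. Satb1, Rag1 and Trbc2 are thymocyte genes, and of the thymocyte list of 18 genes, 9 of 12 with enough UMIs were higher in KO, 1125 CPM in WT and 2634 CPM in KO as a sum. In 4 of the 50 positive KO cells and in 0 of the 15 positive WT cells thymocyte transcripts made up 1% of the UMIs or more, and the ratio of Trbc2 was 3.79 with those cells and 0.43 without them. That of Rag1, fitted against 0 UMIs in WT and so no bound, was 5.26 with them and 4.07 without. Rag1 had 71 UMIs in 13 positive KO cells and 0 in WT, at least 6.33-fold higher. Rag1, which rearranges antigen receptor genes in both lineages, was also read in 8 of the 16 KO cells low in Cd74, with 26 UMIs. Among the partners of Cdc42 at the actin cytoskeleton 1 of 22 was higher, Msn, which encodes moesin, with 1.19 (interval 0.56 to 1.97), and 0 were lower.

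**Figure D4:**
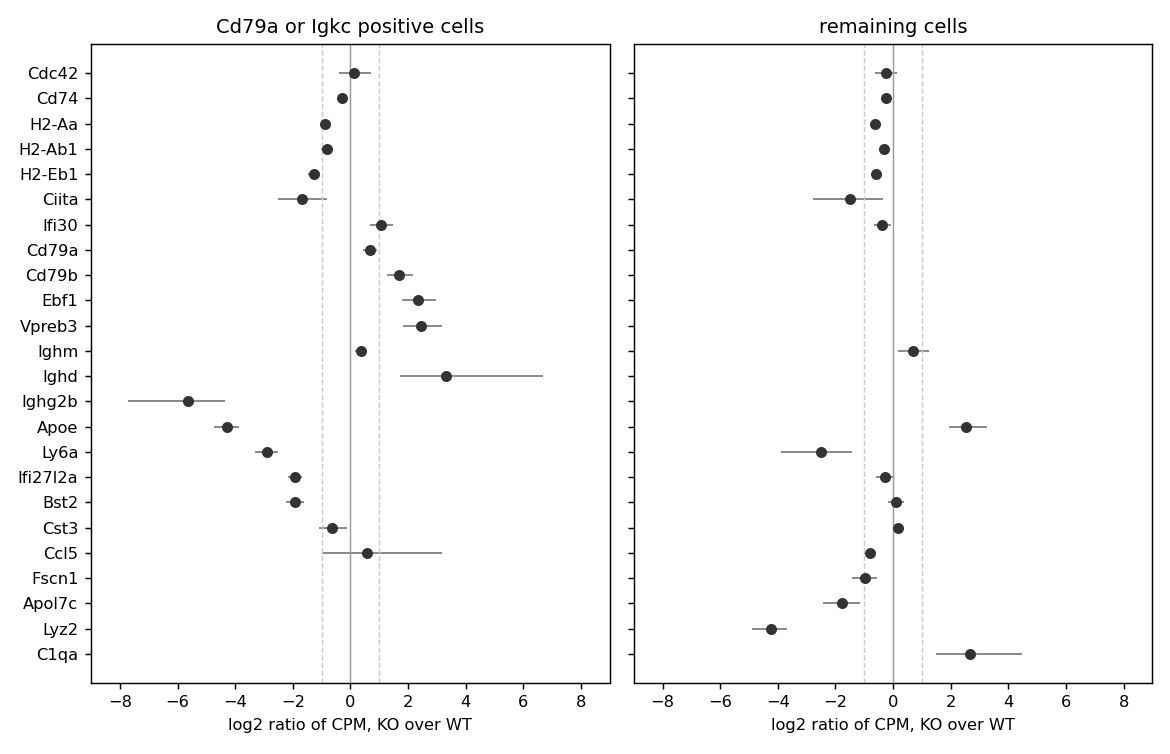
Log2 ratio of CPM, KO over WT, for named genes in positive cells (left) and remaining cells (right) of the Cd74 cluster, with exact 95% intervals for counting error. Dashed lines mark the size rule of 1 in either direction, and genes with fewer than 20 UMIs over both libraries are not drawn. Cdc42 lies near 0 in both panels, while Apoe is at -4.28 in positive and at 2.53 in remaining cells.

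For remaining cells, 10.1% (270) of 2673 genes were higher and 5.09% (136) lower in KO, with a median of 0.09. With DESeq2 size factors 211 were higher and 163 lower. Cd74 had 12321 CPM in WT and 10412 CPM in KO, a log2 ratio of -0.24 (interval -0.33 to -0.15), and H2-Aa, H2-Ab1 and H2-Eb1 had -0.64, -0.32 and -0.61. Of 13 MHC class II genes 0 were higher and 1 was lower, Ciita, with 20 UMIs in 7 WT cells and 10 in 5 KO cells, a ratio of -1.48 (-2.77 to -0.35). The chains of MHC class II thus differed between the libraries by less than the size rule in these cells, and their sign turned, to 0.53 for Cd74 and 0.14 for H2-Aa, when positive cells were chosen by at least 2 other B cell genes.

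Of the activated DC list, 7 of 16 genes with enough UMIs were lower in KO remaining cells and 0 were higher. Ccr7, the receptor that leads activated DCs into the medulla, had 38 UMIs in 13 WT cells and 22 in 10 KO cells, a log2 ratio of -1.29 (interval -2.13 to -0.51). Ccl22, a chemokine ligand of CCR4, had 51 UMIs in 10 and 33 in 4 cells, -1.14 (-1.82 to -0.48), and Traf1 -1.43 (-2.26 to -0.67). Apol7c had 72 UMIs in 8 and 30 in 7 cells, -1.77 (-2.45 to -1.15), but 1.07 without the 5% of cells with most UMIs in each library. Of the other genes called lower, Ccl22, Socs2 and Birc2 turned to 0.34, 1.31 and 0.91 when positive cells were chosen by at least 2 other B cell genes, and Traf1 was at -0.31 as a mean over cells. Of the 7 genes, 4 thus changed sign under at least 1 alternative, and Nudt17, which is among the 7, was not run under the alternatives. Fscn1 and Ccl5 were closer, with -0.98 (-1.42 to -0.55) and -0.81 (-1.01 to -0.61), and Cst3 was at 8675 and 9652 CPM. Cells with pDC genes held 32824 of the 142597 UMIs of remaining cells in WT and 85173 of 203989 in KO. Without these cells Ccl22 and Socs2 were at -0.73 and -0.63, short of the size rule, and Fscn1 and Ccl5 at -0.58 and -0.40. Ccr7, Traf1, Birc2 and Apol7c still passed it, at -1.06, -1.06, -1.32 and -1.36. In cells with activated DC genes alone, 19 in WT and 16 in KO, Fscn1 was read in 15 and 13 cells and Ccl5 in 16 and 12. Both are among the 12 genes that chose these cells, so their presence follows in part from the choice. Those cells had medians of 7 and 4.5 UMIs of Cd74, with 426 and 647 UMIs at most, and median totals of 1170 and 1097.5 UMIs.

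The 27 WT and 14 KO remaining cells with none of the 3 lists were the shallowest in WT, with a median of 837 UMIs against 2544 in KO. At least 3 cDC1 genes were read in 3 WT and 4 KO of them, at least 3 cDC2 genes in 3 and 2, and at least 3 macrophage and monocyte genes in 4 and 4, while 19 WT and 6 KO cells reached none of these. Naaa, a lysosomal hydrolase that is high in cDC1, had 9 UMIs in 5 remaining WT cells and 31 in 5 remaining KO cells, a ratio of 1.21 (interval 0.16 to 2.52), and Sirpa, the receptor that marks cDC2, 26 UMIs in 6 and 7 in 5 cells, -2.34 (-3.86 to -1.17). Xcr1, the chemokine receptor of cDC1, had 7 UMIs in 4 WT and 7 in 2 KO remaining cells. The counts of these defining genes were too few for any statement on cDC1 and cDC2 between the libraries.

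Several of the largest ratios in remaining cells rested on 1 to 8 cells of a library. S100a9 and S100a8, the calprotectin genes of neutrophils, had 117 and 73 UMIs, all in 1 WT cell of 5583 UMIs that held 0 UMIs of Cd74, H2-Aa and H2-Ab1, and 0 UMIs in KO. Lyz2, lysozyme of macrophages and monocytes, had 350 UMIs in 8 WT cells and 26 in 4 KO cells, a log2 ratio of -4.24 (interval -4.90 to -3.69). C1qa, a complement chain of macrophages, had 5 UMIs in 3 WT and 50 in 5 KO cells, 2.68 (1.49 to 4.49) but 0.58 as a mean over cells, Apoe 23 UMIs in 3 and 193 in 6 cells, 2.53 (1.92 to 3.24), and Vcam1, an adhesion receptor, 5 UMIs in 2 and 46 in 8 cells, 2.56 (1.36 to 4.37). C1qa was thus read in remaining cells of both libraries, and in no positive cell of either. Thymocyte genes were higher in KO, 9 of 16 with enough UMIs, at 3107 CPM in WT and 5647 CPM in KO as a sum, against 23947 and 24907 CPM in all other cells, and 3 of 48 WT and 6 of 37 KO cells held 1% or more of such UMIs. Among the partners of Cdc42, 0 of 22 genes were higher or lower in remaining cells.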

How the data were processed

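Dissociated thymi of 5 mice per genotype were pooled into 1 library each and sequenced as single cells with a kit that counts 3′ ends. Per the submitters' processing notes the reads went through Cell Ranger 3.0.2 with STAR on mm10, and the cells through Seurat; the study's methods give limits on genes and reads per cell. The authors deposited raw UMI counts, whole numbers with 1 row for each gene and 1 column for each cell, and a table with each cell's total UMI count, library and cluster numbers. The gene annotation is not given in the sources used here.

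The members, lists and limits used here were chosen with earlier results of these data known. UMIs were summed per library and subset and given as CPM. Log2 ratios were computed after adding 0.5 to both sums, which draws low genes toward 0, and a size rule (log2 ratio of at least 1 in size, 20 UMIs over both sides) took the place of a test. Intervals are Poisson for CPM, conditional binomial for ratios and Clopper-Pearson for shares, and precision follows the 219957 WT and 493300 KO UMIs of the cluster. The genes named are those of 22 lists (263 of 275 genes are in the matrix), the 10 with the largest ratio each way among genes with at least 50 UMIs, and Cdc42; the genes of cells split by Cd74 were picked with their values in view. The scripts were tested on simulated counts with known changes. A doublet caller (Scrublet in scanpy 1.11.5) marked 2 of 13683 cells by its own limit, which did not work, so the 6% of cells with the highest scores served as an alternative. TMM factors came from edgeR 4.0.16 and size factors from DESeq2 1.42.0, for scaling only. Sequences came from RefSeq promoter windows on GRCm38.p6, 250 bases before to 50 after the gene start. Python 3.11.15 was used. Some genes are not reported here.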

Additional observations from a re-analysis of the deposited data

Results flagged for a closer look

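For 3 named genes the log2 ratio of KO over WT had opposite signs in positive and remaining cells and passed the size rule in both; the difference was not tested, since each subset had 1 library per condition. Apoe was at -4.28 in positive and 2.53 in remaining cells, a difference of -6.80. Birc2, an inhibitor of apoptosis, was at 1.06 and -1.57, a difference of 2.63, but at -2.18 and 0.91 when positive cells were chosen by at least 2 other B cell genes, and at -0.34 in remaining cells without the 5% of cells with most UMIs. Fyn, a kinase of antigen receptor signalling, was at -1.18 and 1.74, a difference of -2.93.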

How the results depend on the processing

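No paired analysis was possible because each condition had 1 library. Of the alternative values of single genes, 1742 stayed within the counting interval of the reported ratio, 247 left it with no change of sign in a gene past the size rule, and 15 turned the sign of such a gene; the shares of cells stayed within their intervals under all alternatives that gave a value. Alternatives that leave out the Jchain cell, the cells with pDC genes, the cells with thymocyte UMIs, the cell with a shared barcode or the cell with S100a8, or keep only B cell gene cells over 20 UMIs of Cd74, were chosen after seeing the data.

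Counts of higher and lower genes moved with the minimum. With 5, 50 and 1 UMI they were 1358 and 1234, 104 and 79, and 1650 and 2579 for KO over WT in positive cells, 1411 and 806, 47 and 37, and 3620 and 2104 in remaining cells, 916 and 957, 40 and 79, and 2280 and 2063 for positive over remaining in WT, and 1106 and 1619, 135 and 175, and 2750 and 3445 in KO. In positive cells, 158 genes were lower in KO with TMM and 158 with DESeq2 factors, 629 higher as a mean over cells, and 133 lower in B cell gene cells over 20 UMIs of Cd74. In remaining cells, 516 were higher and 309 lower as a mean over cells, and 165 were higher without the 5% of cells with most UMIs, 116 with positive cells chosen by at least 2 other B cell genes, and 140 without cells with pDC genes. Of positive over remaining in WT, 316 were higher as a mean over cells, 348 lower when chosen by Cd79a, and 250 higher when chosen by at least 2 other B cell genes. In KO, 351 were lower with DESeq2 factors, 952 higher as a mean over cells, 255 lower without the 5% of cells with most UMIs, and 684 higher and 353 lower when chosen by at least 2 other B cell genes. TMM and DESeq2 factors moved the median of all genes by -0.17 and -0.15 for positive over remaining cells in WT and by 0.16 and 0.24 in KO.

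These values turned sign, and the cause was not tested. As a mean over cells, KO over WT in remaining cells was 0.084 for Apol7c, 0.55 for Socs2 and 0.19 for Tmem176b, and positive over remaining in WT was 0.24 for Apol7c. Without the 5% of cells with most UMIs, KO over WT in remaining cells was 1.07 for Apol7c, 0.29 for Socs2 and -0.016 for Trbc1. With positive cells chosen by at least 2 other B cell genes, KO over WT was -2.18 for Birc2 in positive cells and, in remaining cells, 0.63 for Apol7c, 1.31 for Socs2, 0.91 for Birc2 and 0.34 for Ccl22, while positive over remaining was 1.38 for Apol7c in WT and 7.03 for Siglech in KO. Chosen by Cd79a, Siglech was at -6.17 in WT.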
